A study of Mus musculus with 24 samples.

Results

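The replication licensing genes examined here are Mcm2, Mcm3, Mcm4, Mcm5, Mcm6, Mcm7, Mcm10, Cdc6, Cdt1 and Pcna. They were taken by symbol from the RefSeq transcripts of 12 mouse RNA-seq count tables, which gave 10 genes of the 24346 features in those tables, and all 10 were among the 13356 genes with enough reads to be tested. The study asks what LSD1, a histone demethylase whose gene is Kdm1a, does when beige fat cells form. Its cells are 3T3-L1, an established mouse preadipocyte line (passage 13 to 18) that can be induced with hormones to become fat cells. The RNA-seq libraries form 4 groups of 3: cells of the LSD1 overexpression genotype at day 7 and at day 0, and control cells at day 7 and at day 0. All groups were grown in 10% serum, day 0 being confluent cells before induction. Both day 7 groups had been induced with 500 µM isobutylmethylxanthine, 10 µM rosiglitazone, 1 µM dexamethasone and 10 µg/ml insulin, with fresh insulin medium from day 3. The titles call the replicates biological without saying what was separate between them, so the p-values measure the spread between these libraries. How LSD1 was overexpressed and whether the line is 1 clone is not given in the sources used here. The ChIP-seq part has 6 peak lists, 4 of LSD1 and 2 of Nrf1, from 1 sample each.

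A cell may copy its DNA only where a helicase was loaded beforehand, a step called licensing. The origin recognition complex marks the start sites of replication, Cdc6 and Cdt1 bring the ring-shaped helicase built of Mcm2 to Mcm7, and the ring is switched on in S phase with the help of Mcm10. Pcna is the sliding clamp that holds the DNA polymerases on their template behind the fork. Many of these genes are textbook targets of the E2F factors and are low in cells that have left the cell cycle. Confluent 3T3-L1 cells are known to divide again for a short time after induction before they become fat cells.

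The loading factors lie on chromosome 11 (Cdc6, bases 98907801 to 98923942, plus strand, 12 exons) and chromosome 8 (Cdt1, bases 122568015 to 122573130, plus strand, 10 exons). Of the helicase subunits, Mcm2 lies on chromosome 6 (88883474 to 88898780, minus strand), Mcm3 on chromosome 1 (20802968 to 20820312, minus strand) and Mcm4 on chromosome 16 (15623897 to 15637400, minus strand). Mcm5 lies on chromosome 8 (75109509 to 75128439, plus strand), Mcm6 on chromosome 1 (128331575 to 128359705, minus strand) and Mcm7 on chromosome 5 (138164583 to 138171883, minus strand). Mcm10 and Pcna both lie on the minus strand of chromosome 2 (4990724 to 5012791 and 132249286 to 132253180). These are GRCm38 positions of the transcript counted for each gene, and in the RefSeq annotation no exon of these 10 transcripts overlaps an exon of another curated gene.

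Promoters are shown for 5 members because deposited LSD1 peaks lie over them and because their E2F-type letters differ. Each is the 300-base RefSeq window of GRCm38.p6 (250 bases before to 50 after the start site), written 5′ to 3′ on the gene's strand. Capitals mark every match, on either strand, to the E2F core word TTGGCGC or to its variants TTGCCGC (found in no window shown), TTCGCGC (as in Mcm5 and Mcm6) and TTCCCGC (as in Cdt1, not shown), and overlapping matches run together. The windows are chr8:75109259-75109558 (Mcm5, plus strand), chr1:128359656-128359955 (Mcm6, minus strand), chr6:88898731-88899030 (Mcm2, minus strand), chr2:5012742-5013041 (Mcm10, minus strand) and chr2:132253131-132253430 (Pcna, minus strand).
Mcm5: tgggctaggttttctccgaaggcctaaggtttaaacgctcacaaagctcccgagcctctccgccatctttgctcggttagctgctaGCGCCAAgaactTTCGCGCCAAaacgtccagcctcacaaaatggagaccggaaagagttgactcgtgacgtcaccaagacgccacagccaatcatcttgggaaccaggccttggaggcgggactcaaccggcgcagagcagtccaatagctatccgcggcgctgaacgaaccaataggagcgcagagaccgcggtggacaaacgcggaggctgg
Mcm6: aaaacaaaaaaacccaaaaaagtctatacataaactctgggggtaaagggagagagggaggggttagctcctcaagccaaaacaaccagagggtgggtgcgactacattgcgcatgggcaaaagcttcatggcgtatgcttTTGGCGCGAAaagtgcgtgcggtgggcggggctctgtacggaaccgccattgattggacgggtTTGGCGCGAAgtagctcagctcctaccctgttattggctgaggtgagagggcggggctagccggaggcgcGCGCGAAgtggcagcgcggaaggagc
Mcm2: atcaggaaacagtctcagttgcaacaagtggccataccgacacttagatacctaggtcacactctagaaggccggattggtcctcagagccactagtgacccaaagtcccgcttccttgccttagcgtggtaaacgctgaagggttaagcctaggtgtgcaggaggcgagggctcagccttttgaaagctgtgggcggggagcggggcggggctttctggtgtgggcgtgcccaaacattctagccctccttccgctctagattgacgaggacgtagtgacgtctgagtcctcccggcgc
Mcm10: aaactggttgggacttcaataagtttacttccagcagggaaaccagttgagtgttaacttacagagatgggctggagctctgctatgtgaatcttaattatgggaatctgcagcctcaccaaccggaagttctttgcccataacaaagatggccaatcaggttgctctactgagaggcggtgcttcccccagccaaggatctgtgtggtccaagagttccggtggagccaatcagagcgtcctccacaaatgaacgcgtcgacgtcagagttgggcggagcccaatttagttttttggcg
Pcna: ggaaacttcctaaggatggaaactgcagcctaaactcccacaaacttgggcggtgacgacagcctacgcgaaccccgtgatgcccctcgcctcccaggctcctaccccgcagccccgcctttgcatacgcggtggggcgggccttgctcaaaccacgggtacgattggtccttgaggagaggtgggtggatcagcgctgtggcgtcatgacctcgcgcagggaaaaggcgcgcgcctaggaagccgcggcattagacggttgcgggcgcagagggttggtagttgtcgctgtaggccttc

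RefSeq promoter windows were matched for 9 of the 10 genes, all but Mcm4, with 2 windows for Mcm7. An E2F core word was present in 7 of these 10 windows (Mcm3, Mcm5, Mcm6, Mcm7 in both, Cdc6 and Cdt1), against 16.1% of the windows of genes tested. In Mcm3, Mcm5, Mcm6 and the first Mcm7 window a match on one strand overlaps a match on the other. The windows of Mcm2, Mcm10 and Pcna held none of these 4 words. The Mcm10 window ends in TTGGCG, so a TTGGCGC running past its edge would not have been counted. CCAAT, the box bound by NF-Y, on either strand stood in 8 of the 10 windows, against 38.0% of the windows of genes tested. TATAAA, the TATA box, was in none of the 10, against 7.31%. The Cdc6 window belongs to a start site downstream of the first base of the transcript that was counted.

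Total counts over all transcripts ran between 27512273 and 37565527 per library. With 1 transcript kept per gene they ran between 19953122 and 26266765, of which the 10 members took 0.0188% to 0.0886%. Levels are given as CPM, a gene's reads scaled to the depth of its library, TMM factors included. The adipocyte markers, 10 of 10 measured, followed the day labels, with a summed level of 26500 to 32300 CPM in LSD1-labelled cells at day 7, 495 to 623 CPM in LSD1-labelled cells at day 0, 9550 to 11300 CPM in control at day 7 and 668 to 845 CPM in control at day 0. Preadipocyte markers, 9 of 9, summed to 1300 to 1340, 14000 to 18400, 8470 to 8830 and 32900 to 35400 CPM in the same order of groups. Macrophage markers, 7 of 8 measured, summed to at most 5.4 CPM in any library, with Adgre1 and Tyrobp at 0 throughout, and endothelial markers, 6 of 6, to at most 3.85 CPM. Muscle markers, 7 of 7, summed to 33.6 to 44.1 CPM in LSD1-labelled cells at day 7 and 12.7 to 15.6 CPM in control at day 7, with the defining regulators Myod1, Myog and Myf5 at 0 throughout. Replicate 1 of the LSD1-labelled day 0 group stood apart: its log2 CPM correlated at 0.955 and 0.957 with its replicates 2 and 3, which correlated at 0.993 with each other. The members' results that use it, and the counts that it moves, are given with and without it.

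The targeted gene did not bear out the genotype label at day 7, and at day 0 it was only slightly higher. Kdm1a had 54.3, 55.4 and 54.4 CPM in LSD1-labelled cells at day 7, against 66.1, 67.6 and 74.5 CPM in control at day 7. At day 0 it had 89.4, 104.2 and 99.0 CPM in LSD1-labelled libraries, against 79.0, 86.3 and 84.1 CPM in control. Every LSD1-labelled library was thus below every control library at day 7 and above it at day 0. By edgeR's quasi-likelihood test with Benjamini-Hochberg adjustment over all genes tested, Kdm1a was lower at day 7 (log2 difference -0.34, adjusted p = 0.00751) and did not pass at day 0 (0.23, adjusted p = 0.0969; 0.29, adjusted p = 0.0131, without LSD1 day 0 replicate 1). The groups are therefore called LSD1-labelled, and no direction of the licensing genes is read as an effect of more Kdm1a mRNA.

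Over 7 days of differentiation of LSD1-labelled cells, 9 of the 10 licensing genes fell and none rose. In the same contrast 69.8% of all genes tested passed in either direction, 37.2% as lower and 32.6% as higher. The median log2 fold change of the members was -1.76, against -0.07 over all genes tested. Without LSD1 day 0 replicate 1 again 9 fell, with a median of -1.49, beside 76.2% of genes in either direction, 39.6% as lower and 36.5% as higher. In that fit the log2 changes were -4.35 for Mcm10, -3.53 for Mcm5, -2.51 for Cdc6, -2.37 for Mcm3, -1.50 for Mcm6, -1.48 for Mcm4, -1.09 for Cdt1, -0.74 for Mcm7, -0.59 for Mcm2 and -0.21 for Pcna. The deepest falls with all libraries were those of Mcm10, Mcm5 and Cdc6, and the shallowest fall that passed was that of Mcm2. Fewer cycling cells and less of these mRNAs per cell cannot be told apart in such bulk libraries.

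**Figure D1:**
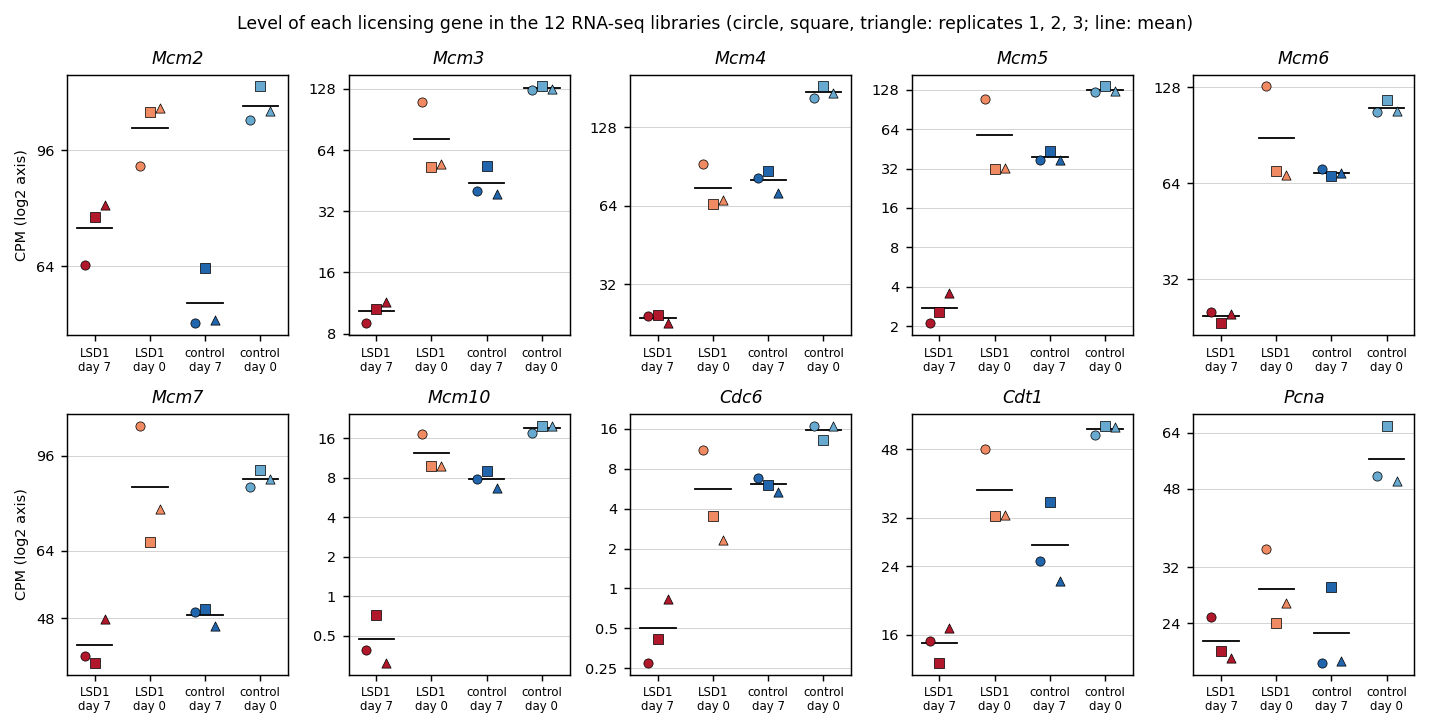
CPM of each licensing gene (log2 axis, a scale of its own in each panel) in the 12 libraries, by group; circles, squares and triangles are replicates 1, 2 and 3 and the line is the group mean. Mcm5, Mcm10 and Cdc6 lie lowest in the 3 LSD1-labelled day 7 libraries, while Mcm2 lies higher in each of them than in any control day 7 library.

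Among the loading factors, Cdc6, the ATPase that loads the helicase together with the origin recognition complex, had 0.276, 0.413 and 0.828 CPM in LSD1-labelled cells at day 7, against 11.0, 3.54 and 2.30 CPM at day 0. All day 7 values lay below all day 0 values, and replicate 1 was the highest of the day 0 group. The fall was -3.44 ± 0.58 on the log2 scale (SE; edgeR adjusted p = 0.000153), resting on 29 reads at day 7, and -2.51 (adjusted p = 7.94e-07) without that replicate. Cdt1, which escorts the helicase to the origin, had 15.5, 13.6 and 16.7 CPM at day 7, against 48.0, 32.4 and 32.6 CPM at day 0. Its groups did not overlap either, with a change of -1.30 ± 0.19 (SE; edgeR adjusted p = 5.13e-05).

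The 6 helicase subunits fell by unequal amounts. Mcm5 had 2.10, 2.58 and 3.57 CPM in LSD1-labelled cells at day 7, against 109.0, 31.6 and 32.4 CPM at day 0. Replicate 1 of day 0 stood well above replicates 2 and 3, and the groups did not overlap. The change was -4.38 ± 0.46 (SE; edgeR adjusted p = 1.95e-06), which is 20.9-fold lower at day 7, and it was -3.53, or 11.6-fold lower, without that replicate. Mcm3 had 8.99, 10.6 and 11.5 CPM at day 7, against 109.8, 52.8 and 54.7 CPM at day 0. The same day 0 library was again the highest, and Mcm3 fell by 2.80 ± 0.26 on the log2 scale (SE; edgeR adjusted p = 6.53e-07). Mcm6 had 25.2, 23.2 and 24.8 CPM at day 7, against 128.9, 69.8 and 67.9 CPM at day 0, a change of -1.86 ± 0.20 (SE; edgeR adjusted p = 3.14e-06). Mcm4 had 24.1, 24.3 and 22.6 CPM at day 7, against 93.0, 64.9 and 67.1 CPM at day 0, a change of -1.66 ± 0.14 (SE; edgeR adjusted p = 2.74e-07). In both genes the 3 day 7 libraries lay close together and below all day 0 libraries. Mcm7 had 40.8, 39.7 and 47.8 CPM at day 7, against 109.0, 66.5 and 76.5 CPM at day 0, a change of -0.97 ± 0.16 (SE; edgeR adjusted p = 0.000108). Mcm2 had 64.3, 75.9 and 79.3 CPM at day 7, against 90.7, 109.6 and 111.1 CPM at day 0, a change of -0.51 ± 0.12 (SE; edgeR adjusted p = 0.00265). Mcm2 was the one subunit whose day 0 level was lowest, not highest, in replicate 1.

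Mcm10, which acts when the loaded helicase is switched on, was close to the detection limit at the end of differentiation. It had 0.386, 0.723 and 0.311 CPM in LSD1-labelled cells at day 7, from 27 reads in all, against 17.3, 9.84 and 9.78 CPM at day 0. No day 7 library came near a day 0 library, and the change of -4.68 ± 0.33 (SE; edgeR adjusted p = 4.28e-08) corresponds to 25.6-fold lower. Pcna had 24.8, 20.8 and 20.1 CPM at day 7, against 35.2, 24.1 and 26.7 CPM at day 0. Its groups overlapped, and its change of -0.39 ± 0.19 (SE) did not pass (edgeR adjusted p = 0.0896; 0.24 without LSD1 day 0 replicate 1). It passed as lower without LSD1 day 0 replicate 2 (-0.50, edgeR adjusted p = 0.0461). Under upper-quartile or total-count scaling Pcna also passed as lower (edgeR adjusted p = 0.0239 and 0.00885). Of the 3 genes whose windows held no E2F core word, Mcm2 and Pcna thus had the smallest changes in these cells and Mcm10 had the deepest. The control changes of Mcm2 (-0.99), Mcm10 (-1.29) and Pcna (-1.30) lay within the range of all members there (-1.71 to -0.68). A link between these words and the changes was not tested.

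In control cells all 10 licensing genes fell between day 0 and day 7, against 48.3% of all genes tested that passed in either direction, 24.6% as lower and 23.7% as higher. The changes lay between -1.71 (Mcm5) and -0.68 (Mcm6), with a median of -1.21 against -0.01 over all genes tested. The lowest value of any member in a control day 7 library was 5.33 CPM (Cdc6), above every LSD1-labelled day 7 value of Mcm5, Mcm10 and Cdc6.

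Cdc6 had 6.86, 6.07 and 5.33 CPM in control cells at day 7, against 16.8, 13.2 and 16.9 CPM at day 0. The groups did not overlap, but the change of -1.36 ± 0.44 (SE; edgeR adjusted p = 0.0218) missed the threshold when any one of control day 7 replicates 2 or 3 or control day 0 replicates 1 or 3 was left out (adjusted p = 0.0583 to 0.0767). Cdt1 had 24.8, 35.1 and 22.0 CPM at day 7, against 52.3, 55.2 and 54.8 CPM at day 0, a change of -0.99 ± 0.19 (SE; edgeR adjusted p = 0.000925).

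Of the helicase subunits in control cells, Mcm5 had 37.5, 43.3 and 37.1 CPM at day 7, against 122.8, 136.1 and 126.0 CPM at day 0, a change of -1.71 ± 0.38 (SE; edgeR adjusted p = 0.00258). Mcm3 had 40.04, 53.1 and 38.8 CPM at day 7, against 126.2, 131.5 and 127.8 CPM at day 0, a change of -1.55 ± 0.24 (SE; edgeR adjusted p = 0.00021). Both genes were lower in every day 7 library than in any day 0 library. Mcm4 had 82.1, 87.4 and 71.6 CPM at day 7, against 165.9, 184.1 and 173.7 CPM at day 0, a change of -1.12 ± 0.14 (SE; edgeR adjusted p = 2.83e-05). Mcm2 had 52.4, 63.5 and 53.0 CPM at day 7, against 106.5, 119.9 and 110.0 CPM at day 0, a change of -0.99 ± 0.13 (SE; edgeR adjusted p = 3.38e-05). Mcm7 had 49.3, 49.99 and 46.5 CPM at day 7, against 83.9, 90.3 and 86.8 CPM at day 0, a change of -0.84 ± 0.16 (SE; edgeR adjusted p = 0.000762). No control day 7 library overlapped day 0 for these genes, and Mcm2 was in the middle of the subunits here. Mcm6 changed least, with 70.7, 67.3 and 68.7 CPM at day 7, against 107.4, 117.0 and 107.5 CPM at day 0 (-0.68 ± 0.20, SE; edgeR adjusted p = 0.0118).

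Mcm10 had 7.80, 8.99 and 6.74 CPM in control cells at day 7, against 17.7, 19.8 and 19.99 CPM at day 0, a change of -1.29 ± 0.24 (SE; edgeR adjusted p = 0.000811). Pcna had 19.6, 29.0 and 19.8 CPM at day 7, against 51.4, 66.4 and 49.9 CPM at day 0, a change of -1.30 ± 0.19 (SE; edgeR adjusted p = 0.000142). The control day 7 level of Pcna overlapped the LSD1-labelled day 7 level given above, although its day 0 level was higher in each control library than in any LSD1-labelled one.

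At day 7, LSD1-labelled cells had lower levels than control for 7 of the 10 licensing genes and a higher level for 1, Mcm2. Of all genes tested, 63.6% passed, 33.4% as lower and 30.2% as higher. The median of the members was -1.63, against -0.05 over all genes tested. The day 7 values of every library were given above with the 2 time courses. Kdm1a was itself lower in these LSD1-labelled libraries.

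Mcm10 (-4.03 ± 0.33, adjusted p = 3.52e-07), Mcm5 (-3.83 ± 0.45, adjusted p = 9.05e-06) and Cdc6 (-3.57 ± 0.58, adjusted p = 0.00015) differed most by edgeR's quasi-likelihood test (log2 ± SE). In each, the highest LSD1-labelled library at day 7 was far below the lowest control library. Mcm3 (-2.08 ± 0.26, adjusted p = 1.32e-05), Mcm4 (-1.76 ± 0.14, adjusted p = 2.91e-07) and Mcm6 (-1.50 ± 0.20, adjusted p = 3.09e-05) followed in the same test. Cdt1 was lower by a smaller amount (-0.84 ± 0.19, SE; edgeR adjusted p = 0.00207), without overlap of its libraries. Mcm7 (-0.18 ± 0.16, SE; edgeR adjusted p = 0.323) and Pcna (-0.06 ± 0.19, SE; edgeR adjusted p = 0.81) did not pass. Under total-count scaling Mcm7 passed as lower (-0.43, adjusted p = 0.0162).

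Mcm2 averaged 73.2 ± 7.88 CPM in LSD1-labelled cells at day 7 and 56.3 ± 6.24 CPM in control at day 7 (SD, n = 3 each), with every LSD1-labelled library above every control library. The difference of 0.38 ± 0.12 (SE) passed edgeR's test (adjusted p = 0.0176). It did not pass under upper-quartile scaling (0.24, adjusted p = 0.109), under total-count scaling (0.13, adjusted p = 0.41), or without any one of LSD1 day 7 replicates 2 and 3 and control day 7 replicates 1 and 3 (adjusted p = 0.0631 to 0.0709).

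**Figure D2:**
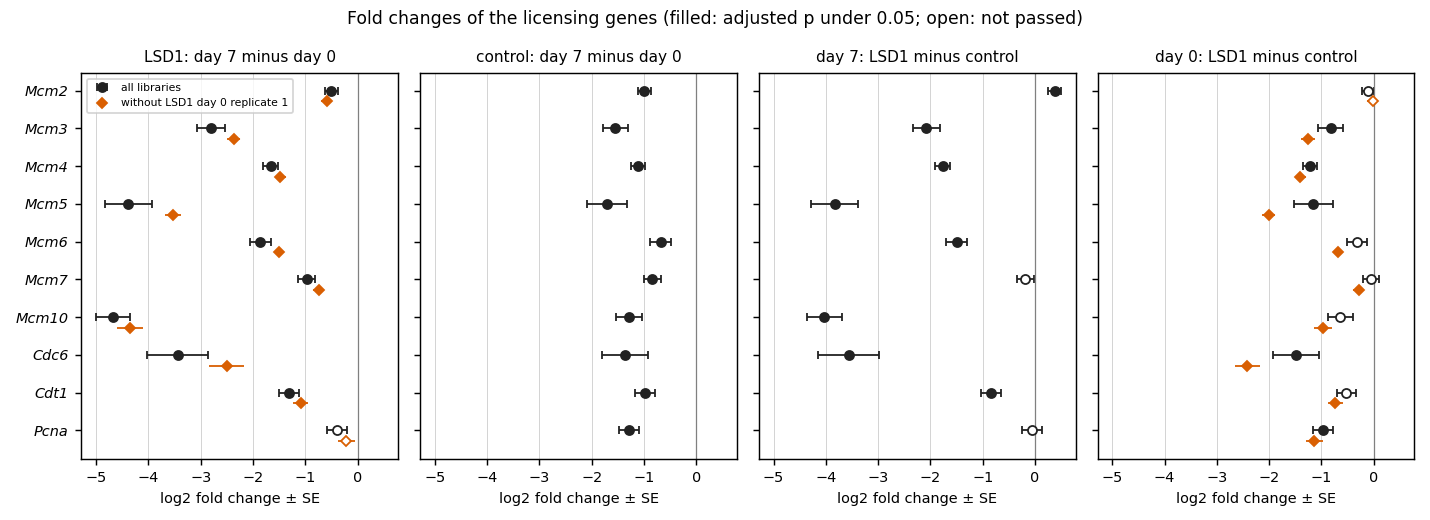
Log2 fold change ± SE of each licensing gene in 4 comparisons (edgeR); filled symbols passed an adjusted p of 0.05, and diamonds leave out LSD1 day 0 replicate 1 where that library enters. With all libraries Mcm5, Mcm10 and Cdc6 lie beyond -3 in the LSD1-labelled time course (Cdc6 at -2.51 without LSD1 day 0 replicate 1) and at day 7, where Mcm2 alone lies right of 0, and all members lie between -1.71 and -0.68 in control.

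Before induction, 5 of the 10 members were lower in LSD1-labelled cells than in control and none was higher, against 25.8% of all genes tested that passed in either direction, 13% as lower and 12.8% as higher. They were Mcm4 (-1.22 ± 0.14, adjusted p = 5.54e-05), Pcna (-0.97 ± 0.19, adjusted p = 0.00292), Mcm3 (-0.83 ± 0.24, adjusted p = 0.0223), Cdc6 (-1.48 ± 0.44, adjusted p = 0.026) and Mcm5 (-1.16 ± 0.37, adjusted p = 0.0379) by edgeR's quasi-likelihood test (log2 ± SE). Cdt1 (-0.52, adjusted p = 0.0568) and Mcm10 (-0.64, adjusted p = 0.0649) lay just past the threshold in that edgeR test, and Mcm6 (-0.32), Mcm2 (-0.11) and Mcm7 (-0.05) did not pass. DESeq2 called Cdt1 and Mcm10 as well (adjusted p = 0.0339 and 0.032), which makes 7 members. It called 3993 of all genes tested, against 3449 in edgeR. With no filter on low counts Cdt1 passed in edgeR (adjusted p = 0.0499) and Mcm5 did not (adjusted p = 0.0723). With all libraries Kdm1a did not pass as higher in this contrast.

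The day 0 result turned on single libraries. Without LSD1 day 0 replicate 1, 9 of the 10 members were lower, all but Mcm2, while the share of all genes tested that passed was 48.6%, 26% as lower and 22.6% as higher. In that fit Cdc6 was at -2.42, Mcm5 at -2.01, Mcm4 at -1.40, Mcm3 at -1.26, Pcna at -1.14, Mcm10 at -0.97, Cdt1 at -0.74, Mcm6 at -0.69, Mcm7 at -0.29 and Mcm2 at -0.02, and the median of the members was -1.05 against -0.73 with the library. Leaving out LSD1 day 0 replicate 2 or 3, or control day 0 replicate 1 or 3, left 2 members called (Mcm4 and Pcna), and leaving out control day 0 replicate 2 left 3. A fit of only these 2 groups also called 2 members. Over all genes, 3449 were called with all libraries, 2172 to 6565 with 1 library left out and 1862 in the 2-group fit.

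The median of the members relative to the control day 0 mean shows how far replicate 1 of the LSD1-labelled day 0 group lay from its group. That median was -0.23 in replicate 1, -1.08 in replicate 2 and -1.01 in replicate 3 on the log2 scale. The mitosis markers moved with it, at 0.05 in replicate 1 and -1.30 and -1.31 in replicates 2 and 3, and their summed level ranged between 390 and 1010 CPM in this group. Their part in the result was not tested.

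The change between day 0 and day 7 itself differed between LSD1-labelled and control cells for 8 of the 10 members, by the interaction of label and day in edgeR. Of all genes tested, 51.9% passed this test, 28.1% as lower and 23.9% as higher. Cells with the LSD1 label lost more of Mcm10 (-3.39 ± 0.41, adjusted p = 2.29e-05), Mcm5 (-2.68 ± 0.57, adjusted p = 0.00178), Cdc6 (-2.08 ± 0.74, adjusted p = 0.0306) and Mcm3 (-1.26 ± 0.34, adjusted p = 0.00827). The same held for Mcm6 (-1.18 ± 0.28, adjusted p = 0.00344) and Mcm4 (-0.54 ± 0.19, adjusted p = 0.0321) in the edgeR test (log2 ± SE). They lost less of Pcna (0.91 ± 0.27, adjusted p = 0.0132) and Mcm2 (0.49 ± 0.18, adjusted p = 0.0321) in that edgeR test. Mcm7 (-0.13, adjusted p = 0.638) and Cdt1 (-0.32, adjusted p = 0.343) did not pass in edgeR with TMM scaling. Under total-count scaling both passed, with a larger loss in LSD1-labelled cells (-0.52, adjusted p = 0.0386, and -0.71, adjusted p = 0.031).

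Without LSD1 day 0 replicate 1 the same 8 members passed, beside 64.7% of genes in either direction, 33.7% as lower and 31% as higher, with Mcm5 at -1.82, Cdc6 at -1.15, Mcm3 at -0.82, Mcm10 at -3.06, Mcm6 at -0.81, Mcm4 at -0.36, Mcm2 at 0.40 and Pcna at 1.08. Leaving out other single libraries left 5 to 8 members called, the 5 without control day 7 replicate 1, where Mcm2, Mcm4 and Cdc6 missed the threshold. Over all genes, 6304 to 8746 passed in the fits with 1 library left out, against 6933 with all libraries. With 1 library left out, Mcm2 missed it without LSD1 day 7 replicate 2 or 3, control day 7 replicate 1 or 3, or control day 0 replicate 2 or 3. Mcm4 missed it without LSD1 day 7 replicate 1 or 3, control day 7 replicate 1 or 2, or control day 0 replicate 1 or 3. Cdc6 missed it without LSD1 day 7 replicate 1 or 2, control day 7 replicate 1 or 2, or control day 0 replicate 2. The edgeR adjusted p in these fits was 0.0505 to 0.0884. Mcm2 also missed it with no filter on low counts (0.43, adjusted p = 0.0909) and under upper-quartile scaling (0.31, adjusted p = 0.152). Mcm2 and Pcna did not pass under total-count scaling (0.08, adjusted p = 0.727, and 0.52, adjusted p = 0.112).

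Because Mcm2 to Mcm7 form 1 ring, their levels were compared per kilobase of transcript within each library. In control cells at day 0 the 6 subunits lay close together, the highest (Mcm4) standing at 1.44 to 1.48 times the lowest (Mcm2). In LSD1-labelled cells at day 7 the highest (Mcm2) stood at 22.7 to 31.3 times the lowest (Mcm5). The spread was 1.93 to 2.19 times in control cells at day 7, where Mcm5 was also the lowest.

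The level of Mcm2 over that of Mcm5, both per kilobase, was 31.3, 30 and 22.7 in LSD1-labelled cells at day 7, against 0.849, 3.54 and 3.50 in LSD1-labelled cells at day 0. It was 1.43, 1.5 and 1.46 in control cells at day 7, against 0.885, 0.899 and 0.892 in control cells at day 0. Each day 7 group lay above its day 0 group without overlap, and the LSD1-labelled day 7 libraries lay above all others. The pair was chosen as the highest and lowest subunit of the LSD1-labelled day 7 libraries, so these ratios are a description, and no p-value is read from them. The mean log2 ratio at day 7 was 4.79 in LSD1-labelled cells and 0.55 in control cells.

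**Figure D3:**
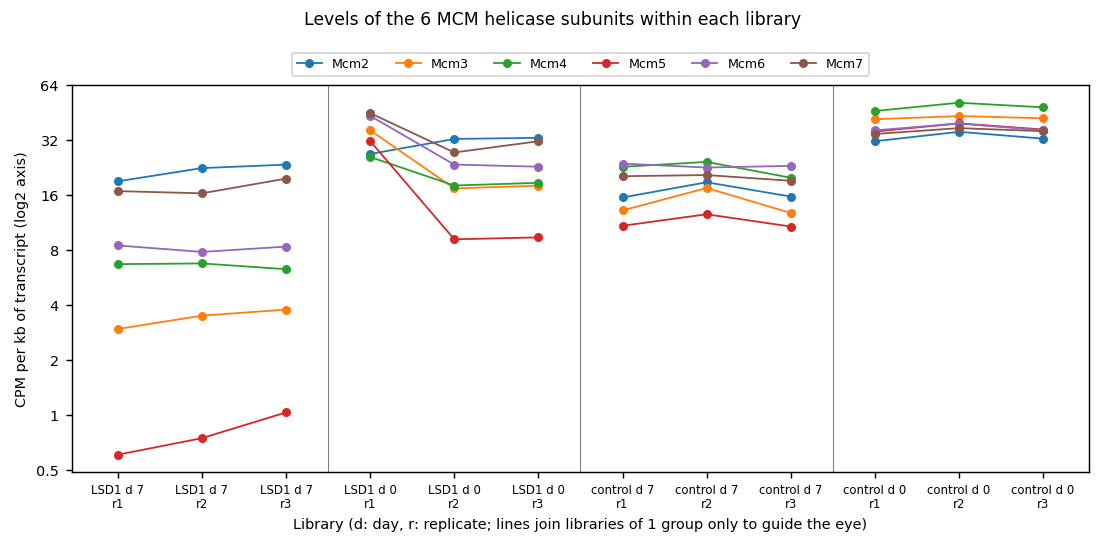
Level of the 6 helicase subunits in each library, in CPM per kilobase of transcript on a log2 axis; lines join libraries of a group only to guide the eye. The subunits lie within 1.48-fold of each other in control day 0 libraries and spread over 22.7-fold to 31.3-fold in LSD1-labelled day 7 libraries, with Mcm5 at the bottom.

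Across all members the order per kilobase in LSD1-labelled cells at day 7 was Mcm2 (21.7 ± 2.34), Mcm7 (17.65 ± 1.8), Pcna (17.4 ± 2.03), Mcm6 (8.24 ± 0.353), Cdt1 (6.96 ± 0.720), Mcm4 (6.60 ± 0.259), Mcm3 (3.42 ± 0.419), Mcm5 (0.799 ± 0.218), Mcm10 (0.135 ± 0.0629) and Cdc6 (0.110 ± 0.0622) CPM per kilobase (SD, n = 3). Neighbours overlapped between Mcm2 and Mcm7, Mcm7 and Pcna, Cdt1 and Mcm4, and Mcm10 and Cdc6. In control cells at day 0 the order ran Mcm4 (48.6), Pcna (44.4), Mcm3 (42.4), Mcm6 (37.3), Mcm5 (37.3), Mcm7 (35.9), Mcm2 (33.3), Cdt1 (24.7), Mcm10 (5.49) and Cdc6 (3.38). Mcm10 and Cdc6 were the lowest in all 4 groups, while Mcm2 stood first in LSD1-labelled cells at day 7 and seventh in control cells at day 0.

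Genes that act next to the members in replication were counted from lists named here by their role; these counts, like the members, were chosen with earlier results of the data known. In LSD1-labelled cells at day 7 against day 0 each count stands beside 37.2% of all genes tested that fell and 32.6% that rose, and no difference between a list and the members or all genes was tested. Of the origin recognition complex, at which the helicase is loaded, 3 of 6 subunits rose and 1 fell, with a median of 0.54. Orc5 rose (1.099, adjusted p = 3.43e-05) and Orc6 rose (0.80, adjusted p = 8.37e-05) in edgeR, while Orc1, named after its values were seen, fell (-2.69, adjusted p = 3.41e-05). Orc1 had 0.497, 0.775 and 0.828 CPM at day 7, against 6.92, 3.83 and 2.96 CPM at day 0. At day 7 the other 5 subunits were higher in LSD1-labelled cells than in control and Orc1 was lower, but only 2 stayed higher under upper-quartile or total-count scaling. In that day 7 contrast 30.2% of all genes tested passed as higher and 33.4% as lower.

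Among the 8 inhibitors and turnover factors of licensing, 2 fell and 2 rose in LSD1-labelled cells over differentiation, both smaller shares than the 37.2% and 32.6% over all genes tested. Without LSD1 day 0 replicate 1, 2 fell and 3 rose, beside 39.6% and 36.5% of all genes tested. Dtl, the substrate receptor that targets Cdt1 for destruction on Pcna-bound DNA, fell by 3.62 on the log2 scale (edgeR adjusted p = 7.16e-09). Skp2, another ubiquitin ligase receptor with Cdt1 among its substrates, fell by 2.69 (edgeR adjusted p = 1.48e-09). Fbxo31, an F-box protein known in human cells to target Cdt1, rose by 3.95 (edgeR adjusted p = 1.71e-08). Gmnn encodes geminin, the direct inhibitor of Cdt1, and is named here after its values were seen. It had 4.30, 3.15 and 1.55 CPM in LSD1-labelled cells at day 7, against 5.81, 1.11 and 1.21 CPM at day 0. The groups overlapped and the change did not pass (0.16, edgeR adjusted p = 0.813), but it passed as higher without LSD1 day 0 replicate 1 (1.37, edgeR adjusted p = 0.00179).

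Of 14 genes of helicase activation and origin firing, 9 fell and 1 rose in LSD1-labelled cells over differentiation, with a median of -1.03 (10 and 2 without LSD1 day 0 replicate 1, median -0.78). Dbf4, the activator of the kinase Cdc7, had 5.35, 5.17 and 4.50 CPM at day 7, against 46.3, 48.4 and 46.1 CPM at day 0, and fell by 3.23 (edgeR adjusted p = 1.17e-10). At day 0 Dbf4 was higher in LSD1-labelled cells than in control (0.33, edgeR adjusted p = 0.0329), unlike the members that passed there. Gins4, a part of the active helicase, rose (0.99, edgeR adjusted p = 0.00136).

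Of 12 replicative polymerase and primase genes, 8 fell and 3 rose in LSD1-labelled cells. The catalytic subunits Pola1 and Pole fell by 2.95 and 3.70 (edgeR adjusted p = 1.93e-08 and 7.74e-08), while the small accessory subunit Pole4 rose by 2.12 (edgeR adjusted p = 9.1e-08). Of 21 clamp loading and fork factors, 10 fell and 2 rose, among them Timeless, a fork protection factor, lower by -2.36 (edgeR adjusted p = 8.99e-06), and Rfc1, the large clamp loader subunit, higher by 0.73 (edgeR adjusted p = 2.22e-05). Without LSD1 day 0 replicate 1 these 21 split into 8 lower and 8 higher. Of 8 nucleotide supply genes, 5 fell and 1, Rrm2b, rose (1.08, edgeR adjusted p = 0.00104).

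Cyclin A2 (Ccna2) fell by 3.54 (edgeR adjusted p = 1.61e-06), or by 2.91 without LSD1 day 0 replicate 1, and cyclin E2 (Ccne2) rose by 2.11 (edgeR adjusted p = 5.19e-08) in LSD1-labelled cells; of the 6 S phase cyclins and kinases, 3 fell and 1 rose, or 3 and 3 without LSD1 day 0 replicate 1. Of 13 E2F and pocket protein genes, 7 fell and 4 rose (8 and 4 without LSD1 day 0 replicate 1), beside 37.2% and 32.6% of all genes tested. Rb1, the retinoblastoma protein that restrains E2F factors, rose by 3.02 (edgeR adjusted p = 1.64e-08), and Tfdp1, a partner of the E2F factors, fell by 0.80 (edgeR adjusted p = 4.26e-06). Their relatives went the other way: Tfdp2 rose (1.28, edgeR adjusted p = 4.47e-07) and the pocket protein gene Rbl1 fell (-0.99, edgeR adjusted p = 0.000105). The meiotic and repair relatives Mcm8 and Mcm9 did not pass (-0.05 and -0.16). All 15 mitosis markers fell, with a median of -4.26 (-3.78 without LSD1 day 0 replicate 1), against -1.76 for the licensing genes.

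In control cells the mitosis markers moved less: 7 of 15 fell, with a median of -0.65, beside all 10 licensing genes with a median of -1.21. Of the other lists in control cells, 6 of 14 firing genes, 7 of 12 polymerase genes, 9 of 21 fork factors and 2 of 8 nucleotide supply genes fell, beside 24.6% of all genes tested. The count of nucleotide supply genes is close to that share. None of the 6 origin recognition genes fell there, and 2 rose. At day 7, LSD1-labelled cells had all 15 mitosis markers lower than control, with a median of -4.36, and summed levels of 35.1 to 38.4 CPM in LSD1-labelled cells and 599 to 657 CPM in control.

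**Figure D4:**
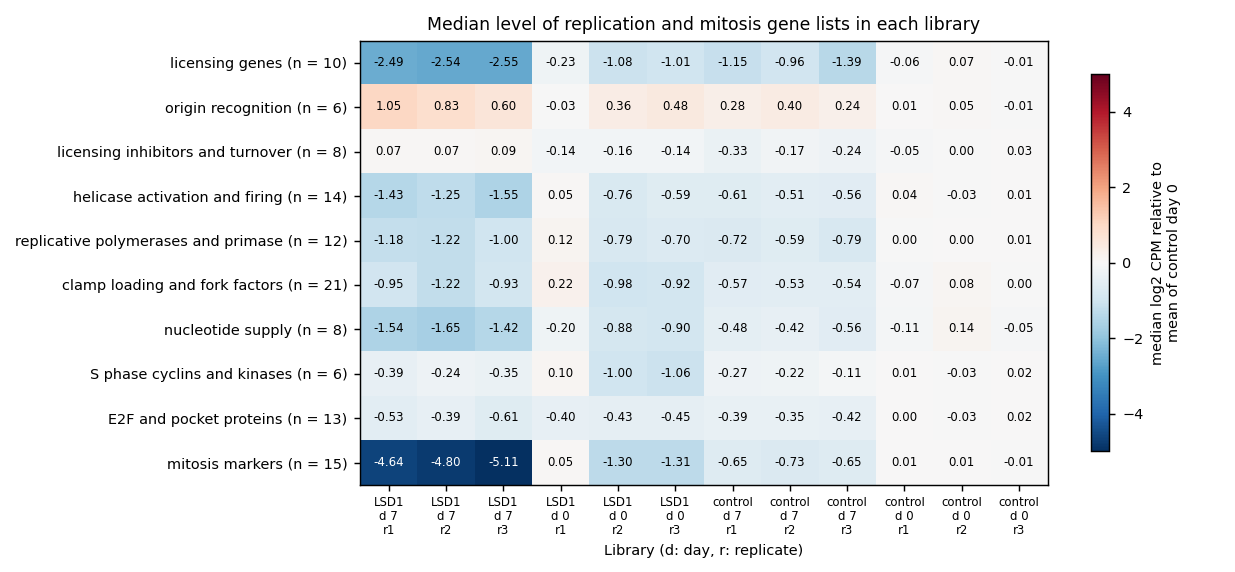
Median log2 CPM of each list in each of the 12 libraries relative to the mean of the control day 0 group (colour and printed value; d is day, r is replicate). The licensing genes lie at -2.49 to -2.55 in LSD1-labelled day 7 libraries and at -0.96 to -1.39 in control day 7 libraries, and LSD1 day 0 replicate 1 (-0.23) lies apart from replicates 2 and 3.

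The authors' peak lists placed LSD1 within 1 kb of a start site of 9 of the 10 members in LSD1-labelled cells at day 7, where 80.9% of the 13112 genes tested with a start site had such a peak. In LSD1-labelled cells at day 0 it was 7 of 10 members, against 71.4% of genes. In control cells it was 4 of 10 at day 7, against 59.8% of genes, and 4 of 10 at day 0, against 23.0% of genes. No more is read from these counts than that each stands beside its background share. The lists hold 27221, 13997, 8303 and 3024 peaks in that order, each from 1 sample with a depth that is not given in the sources used here, so no difference between lists was tested.

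Mcm4, Cdt1 and Pcna had an LSD1 peak near their start in all 4 lists. In control cells at day 7 the Mcm4 peak (15637451 to 15638476) lay upstream of the start site and did not cover it. The peak at Pcna ranked 389 of 8303 by the authors' score in control cells at day 7 and 1342 of 13997 in LSD1-labelled cells at day 0. The highest member score was that of Mcm7 in LSD1-labelled cells at day 7 (1088, rank 2549 of 27221, positions 138170653 to 138172967 of chromosome 5). Mcm5, the subunit with the deepest fall, had (as did Mcm3) a peak in LSD1-labelled cells at day 7 only (score 295, positions 75108566 to 75109905 of chromosome 8), which covers the whole window printed above. Mcm10 had one only in LSD1-labelled cells at day 0, with a score of 55.6 beside a lowest score of 50 in the lists. Mcm2 and Mcm6 had peaks in both LSD1-labelled lists and in neither control list. The Mcm2 peak in LSD1-labelled cells at day 0 ranked low, with a score of 60.25 (rank 12638 of 13997). At control day 0, the peaks of Cdc6 and Pcna had scores of 51.2 and 50.5, close to that lowest score.

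Nrf1, a factor known for genes of mitochondrial biogenesis, had a peak near 1 of the 10 members at day 7 and at day 0, in both cases Cdt1, against 13.1% and 12.1% of genes. For the later of the Nrf1 samples the title and the genotype entry disagree on the LSD1 label, so both are given by day alone. The Cdt1 peaks scored 159 (rank 479 of 1629) at day 7 and 120 (rank 441 of 2078) at day 0.

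**Figure D5:**
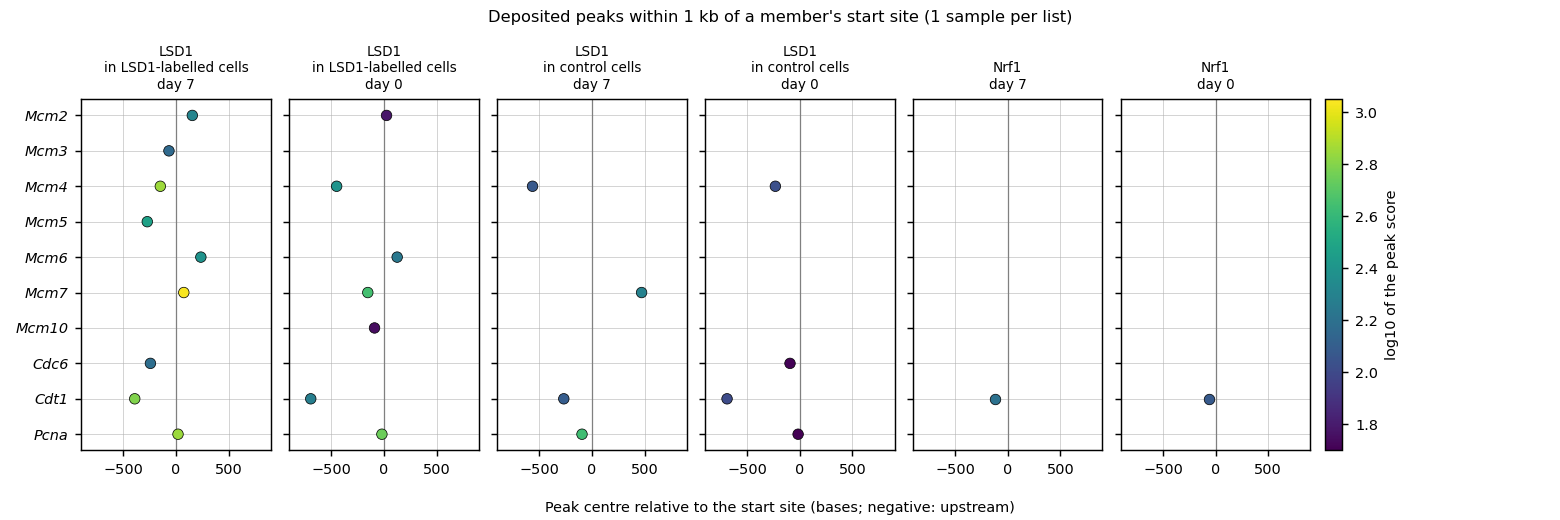
Centre of each deposited peak within 1 kb of a member's start site, in bases from the start (negative is upstream), 1 panel per peak list and 1 row per gene; colour is log10 of the authors' score. Peaks lie at 9, 7, 4 and 4 members in the LSD1 lists and at Cdt1 alone in both Nrf1 lists.

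The mean profile of the members over the 12 libraries was closest to those of Actn1, Mrgprf, Tnfsfm13, Fam171a2, Ckap4, Mms22l, Evc and Pdzd4 among 9517 other genes of at least 10 CPM. Likeness was the root mean square difference of centred log2 CPM, which was 0.12 for Actn1 and 0.20 for Pdzd4, beside a median of 1.16 over those genes. Actn1 averaged 79.9 CPM in LSD1-labelled cells at day 7, 362 at day 0, 235 in control at day 7 and 605 at day 0. Of the members, Mcm4 (0.23), Mcm6 (0.28), Mcm3 (0.29) and Cdt1 (0.43) stayed near their common mean, while Mcm7 (0.71), Pcna (0.74), Cdc6 (0.86), Mcm2 (0.94), Mcm10 (1.02) and Mcm5 (1.03) departed from it.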

How the data were processed

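RNA-seq of 12 libraries and ChIP-seq peaks of 6 samples were used. The authors deposited raw read counts per RefSeq transcript and peak lists with a score per peak. Build mm10 and the tools below are named in the submitters' processing notes: for RNA-seq TopHat2 2, HOMER, edgeR and DESeq 1.8.3, and for ChIP-seq Bowtie2 and MACS 1.41. Their parameters and the strandedness of counting are not given in the sources used here. Of 30521 transcript rows, 29144 were named from RefSeq and 177 from GENCODE, and 1200 stayed unnamed, with 0.78% to 1.41% of counts per library. The isoform with the highest mean count stood for its gene, since isoforms share reads.

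Counts were tested with edgeR 4.0.16 (R 4.3.3): filterByExpr, TMM scaling, a robust quasi-likelihood model with 4 group means, two-sided tests, Benjamini-Hochberg adjustment over 13356 genes and a threshold of 0.05. DESeq2 1.42.0, other scalings, no filter, summed transcripts, a replicate block, pairwise fits and leaving out each library were alternatives. The fit was tested on simulated data with an even spread, few changed genes and no library set apart. That simulation does not show how the fit behaves with a library set apart or with most genes changed. SEs and p-values include the spread between libraries. Reads carry no molecular identifiers, so a read total does not count independent molecules. The members and lists were chosen with earlier results of these data known. From each list, up to 2 genes per direction with the smallest adjusted p and at least 10 CPM are named. Peaks were assigned within 1 kb of RefSeq start sites, and input samples were not analysed here.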

Additional observations from a re-analysis of the deposited data

Results flagged for a closer look

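The following members changed over differentiation by a different amount in LSD1-labelled cells than in control cells, by edgeR's interaction of label and day (log2 difference of the changes). The values were 0.489 for Mcm2, -1.255 for Mcm3, -0.543 for Mcm4, -2.676 for Mcm5, -1.179 for Mcm6, -3.39 for Mcm10, -2.083 for Cdc6 and 0.908 for Pcna. Kdm1a itself differed in this way (-0.57, adjusted p = 0.00345), with a larger fall in the LSD1-labelled cells. Of all genes tested, 51.9% passed this interaction test. The calls of Mcm2, Mcm4 and Cdc6 were each lost when any of several single libraries was left out. Those of Mcm2 and Pcna were lost under total-count scaling.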

How the results depend on the processing

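Of 75 recomputed counts of members called, 67 were within 1.5 times the reported count. The day 0 count of 5 became 2 when only the 2 groups entered the fit, and it lay between 2 and 9 when 1 library was left out. Over all genes the day 0 count of 3449 became 1862 in the first case and 2172 to 6565 in the second. The interaction count of 8 lay between 5 and 8 with 1 library left out, beside 6304 to 8746 of all genes. The count of members with an LSD1 peak in control cells at day 0 became 2 at a peak score of at least 100. The share of all genes at that score was not computed, so this count has no background beside it. Of 750 recomputed member values, 681 kept their direction and their side of the threshold, 49 lost the call, 13 gained it and 7 changed sign. The sign changes were in values that had not passed. With total counts only, Mcm2 and Mcm7 at day 0 became 0.046 and 0.092. With 1 library left out at a time, Mcm7 at day 0 lay between -0.285 and 0.092, the Mcm7 interaction between -0.275 and 0.101, and Pcna at day 7 between -0.152 and 0.156. Outside the members, Rfc1 had passed as higher in LSD1-labelled cells at day 7 (0.24, edgeR adjusted p = 0.0452). With total counts only its value became -0.001. The cause of these changes was not tested. Total-count scaling moved the median of all genes to -0.31 in the LSD1-labelled time course, 0.15 in control, -0.30 between labels at day 7, 0.16 at day 0 and -0.45 for the interaction. In the same order the members' median was then -1.996, -1.051, -1.875, -0.596 and -1.248, against -1.762, -1.205, -1.629, -0.734 and -0.861 with TMM scaling. Of 75 recomputed medians of the members, 24 moved by more than 1 SD of that median between the libraries of the first group compared.

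Replicate numbers did not pair the libraries: deviations of same-numbered libraries from their group means correlated at -0.249 to 0.114. With a replicate block 9, 10, 8, 5 and 8 members were called in the 5 comparisons, the same numbers as without it. Over all genes tested the block gave 9051, 6031, 8161, 2964 and 6541 calls, against 9325, 6447, 8491, 3449 and 6933 without it.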
